A study of Rattus norvegicus with 28 samples.

Results

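The comparison described here sets lungs without injury that were ventilated with tidal volumes varying from breath to breath (healthy_noisy, 3 libraries) against lungs without injury that were not ventilated (control_blank, 3 libraries), across all genes of the table. These 6 of the 28 libraries were chosen by the group names in their columns. Lungs without injury that were ventilated at a constant tidal volume under volume control (healthy_VCV, 4 libraries) served as a second reference. All 3 groups were Sprague Dawley rats, and each library holds polyadenylated RNA of the right upper lobe, so cell types are mixed. Size of the tidal volumes, length of ventilation, anaesthesia and age of the animals are not given in the sources used here.

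A mechanical ventilator moves gas by positive pressure, which stretches alveoli and small airways with each breath. Variable ventilation, called noisy ventilation, changes the depth of the breaths around a mean, as spontaneous breathing does. In rodents, ventilation even of uninjured lungs is known to draw neutrophils into the lung, to release interleukins and chemokines, and to act on stretch-sensitive signalling in epithelium and endothelium. Anaesthesia, surgery and stress hormones act on the lung over the same hours, and a lobe sampled whole also carries blood, lymphoid tissue and the cardiac muscle that sheathes the pulmonary veins of rodents.

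Values are the deposited ones, read counts divided by a size factor for each library, on a linear scale. They are given in the order healthy_noisy_029, healthy_noisy_061 and healthy_noisy_078, and control_blank_016, control_blank_021 and control_blank_074. Library size was 13002088 to 16255716 reads in healthy_noisy and 22277745 to 30960809 reads in control_blank, so 1 read is worth 1.02 to 1.31 and 0.55 to 0.81 deposited units in those groups. The tissue label was met by surfactant protein C (Sftpc, 314136, 299334 and 265201 in healthy_noisy lungs, against 453171, 289372 and 289566 in control_blank lungs), and the liver marker Alb stayed at 1.02 to 2.61 in healthy_noisy and 0 to 8.79 in control_blank. Markers of mesothelium were also present. Upk3b was at 283 to 904 in healthy_noisy and 45.5 to 248 in control_blank, without overlap. Msln overlapped, at 1362 to 3376 in healthy_noisy and 1064 to 3448 in control_blank. How much mesothelium each sample held was not tested. Library control_blank_016 stood apart from the other control libraries. The airway secretory gene Scgb1a1 reached 1286166 there, and the endothelial gene Cdh5 was at 545 against 2690 and 4882 in the other 2 control libraries.

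A change in level with the length of the gene also ran through these libraries. Of 10941 tested genes with a symbol, 10792 (98.6%) had a genomic span in RefSeq (GRCr8), and these were split into 5 bins of equal size by span. The median log2 change of healthy_noisy against control_blank was -0.21 in the shortest bin, -0.13, -0.05 and 0.08 in the next 3, and 0.27 in the longest bin. By library, the longest bin lay at -0.04, -0.15 and 0.03 in healthy_noisy and at -0.54, -0.36 and -0.05 in control_blank, relative to the mean of each gene over the 10 libraries. The slope was thus steep in control_blank_016 and control_blank_021, while control_blank_074 lay among the healthy_noisy libraries. Its part in the results was not tested. For some gene groups below, the median is also given after subtracting the median of each member's own bin. That subtraction also moved groups for which it is not repeated below. Among them, the median change went from 0.58 to 0.79 for AP-1 and EGR factors. It went from 0.98 to 1.17 for glucocorticoid targets and from 0.52 to 0.38 for YAP targets. The title numbers of all healthy_noisy libraries begin with 15 and those of all control_blank libraries with 12, so this number series and the ventilation cannot be told apart.

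**Figure D1:**
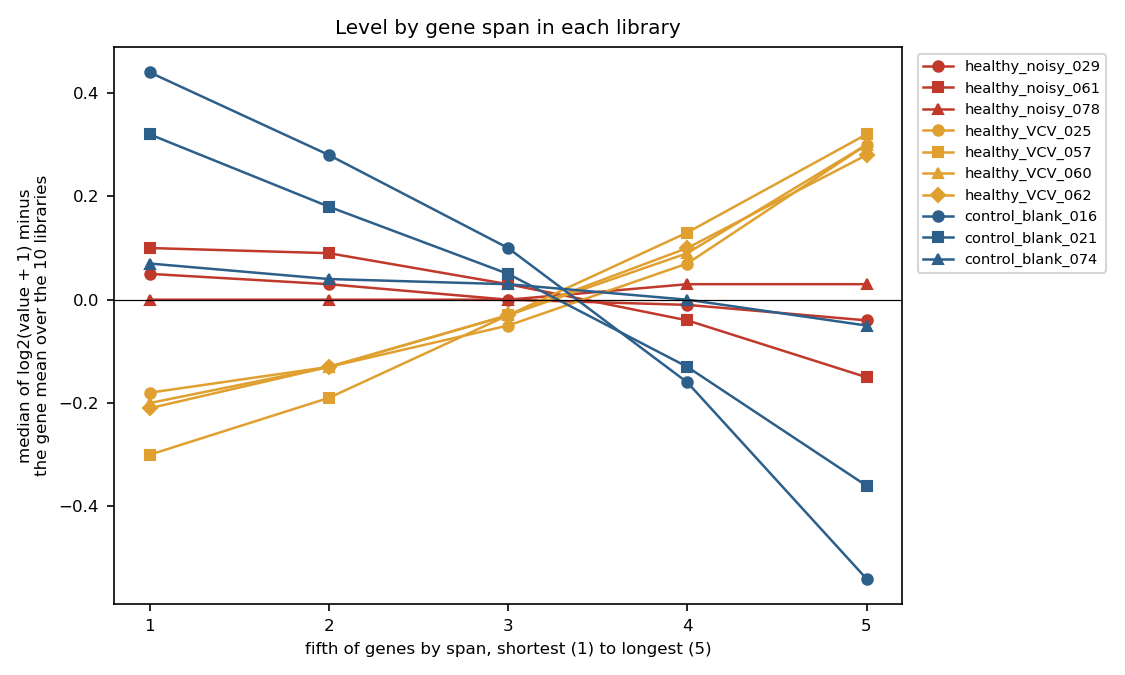
Median level of genes in 5 bins by genomic span (x axis, shortest to longest) in each of the 10 libraries (y axis, log2(value + 1) minus the mean of the gene over the libraries). In the longest bin, healthy_noisy libraries lie at -0.15 to 0.03, healthy_VCV libraries at 0.28 to 0.32 and control_blank libraries at -0.54 to -0.05.

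The lungs differed across a large part of the table. Of 14908 genes tested, 4791 (32.1%) passed an adjusted p of 0.05 in limma's moderated two-sided test with Benjamini-Hochberg adjustment over all genes, 2610 (17.5%) of them higher and 2181 (14.6%) lower in healthy_noisy than in control_blank. By size, 1290 were more than 2-fold higher and 748 more than 2-fold lower, and 17 were more than 16-fold higher and 20 more than 16-fold lower. The values of the groups did not overlap in 4161 of the 4791 genes, and in 5916 (39.7%) of all genes tested. The median log2 change was 0.01 over all genes and the median size of the called changes was 0.90. Of the called genes, 2022 were called in each of the 6 fits that left out 1 library, and the count was 2666 without control_blank_016 and 2803 without healthy_noisy_029. Scaling moved the balance of directions, with 2036 higher and 2795 lower by edgeR on recovered reads and 2153 higher and 2731 lower after TMM scaling. A change in a lobe sampled whole does not tell fewer cells of a type from less RNA per cell. Log2 changes below are given with their standard error from limma, on the scale of log2(value + 1). Counts of higher and lower members in the gene lists below stand against 17.5% and 14.6% of all genes. Some genes are in more than 1 list, so the lists are not separate results. The neutrophil genes Mmp8, Mmp9, Il1r2 and Il8rb are each in another list too, and Il1rn is in the interleukin 1 and glucocorticoid lists.

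Genes of neutrophils, the blood leukocytes that enter inflamed lung first, stood at the top of the comparison. Of 24 tested genes for neutrophil surface and granule proteins, 20 were higher and 0 were lower, against 17.5% higher and 14.6% lower over all genes, and 14 were called in every fit that left out 1 library. The median change over the list was 2.70, against 0.01 over all genes. The mean log2 level of the list was 9.64, 9.10 and 8.89 in healthy_noisy libraries and 6.21, 6.83 and 6.71 in control_blank libraries. All 3 healthy_noisy libraries lay more than 2 units above every control library.

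Prok2, a secreted peptide that attracts and activates myeloid cells, measured 291, 177 and 151 in healthy_noisy lungs, against 6.48, 3.32 and 1.60 in control_blank lungs. The change was 5.51 ± 0.56, adjusted p = 4.65e-06. Il1r2, the decoy receptor that neutrophils use to bind interleukin 1, measured 2431, 1526 and 1485 in healthy_noisy lungs, against 59.97, 57.5 and 39.9 in control_blank lungs. All healthy_noisy libraries stood far above the controls, a change of 5.07 ± 0.58, adjusted p = 9.64e-06. Il8rb, the receptor Cxcr2 for neutrophil-attracting chemokines, had 899, 402 and 286 in healthy_noisy and 11.3, 32.1 and 43.1 in control_blank libraries. It was highest in healthy_noisy_029 and did not overlap between the groups (4.17 ± 0.65, adjusted p = 0.000122). The collagenase Mmp8, stored in neutrophil granules, had 3289.9, 1495 and 673 in healthy_noisy and 32.4, 88.5 and 77.5 in control_blank libraries (4.60 ± 0.57, adjusted p = 1.65e-05). Its healthy_noisy values spread the most of these genes, with healthy_noisy_029 highest and healthy_noisy_078 lowest, and all above the controls. The alarmin S100a8, which neutrophils carry in large amounts, had 6563, 5121 and 6004 in healthy_noisy and 592, 628 and 657 in control_blank libraries (3.23 ± 0.56, adjusted p = 0.000279). Here the healthy_noisy libraries were close together and far above the controls. The members that did not pass were Cyba (-0.06), Lcn2 (0.97), Camp (1.23) and Mpo (0.87).

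The upstream sequence of Mmp8 is shown because its change is among the largest and it holds the motif TTGCNNAA, part of sites bound by C/EBP factors, which drive granule genes in myeloid cells. The window is the 250 bases before the start in RefSeq (GRCr8, plus strand, chr8:13008640-13008889), with the motif in capitals at -101 and -46 from the start.
Mmp8: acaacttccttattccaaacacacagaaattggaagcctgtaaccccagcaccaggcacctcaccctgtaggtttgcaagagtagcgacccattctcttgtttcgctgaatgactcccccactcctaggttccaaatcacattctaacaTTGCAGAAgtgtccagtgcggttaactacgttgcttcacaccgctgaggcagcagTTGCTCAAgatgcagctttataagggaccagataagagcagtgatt
Searched on both strands in windows of 300 bases, from 250 before to 50 after the start, the motif was in 4 of 15 members with an entry, and in 10.6% of all 33469 promoters. Among members that rose it was in 3 of 11, namely Mmp8, Clec4e and Itgam.

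**Figure D2:**
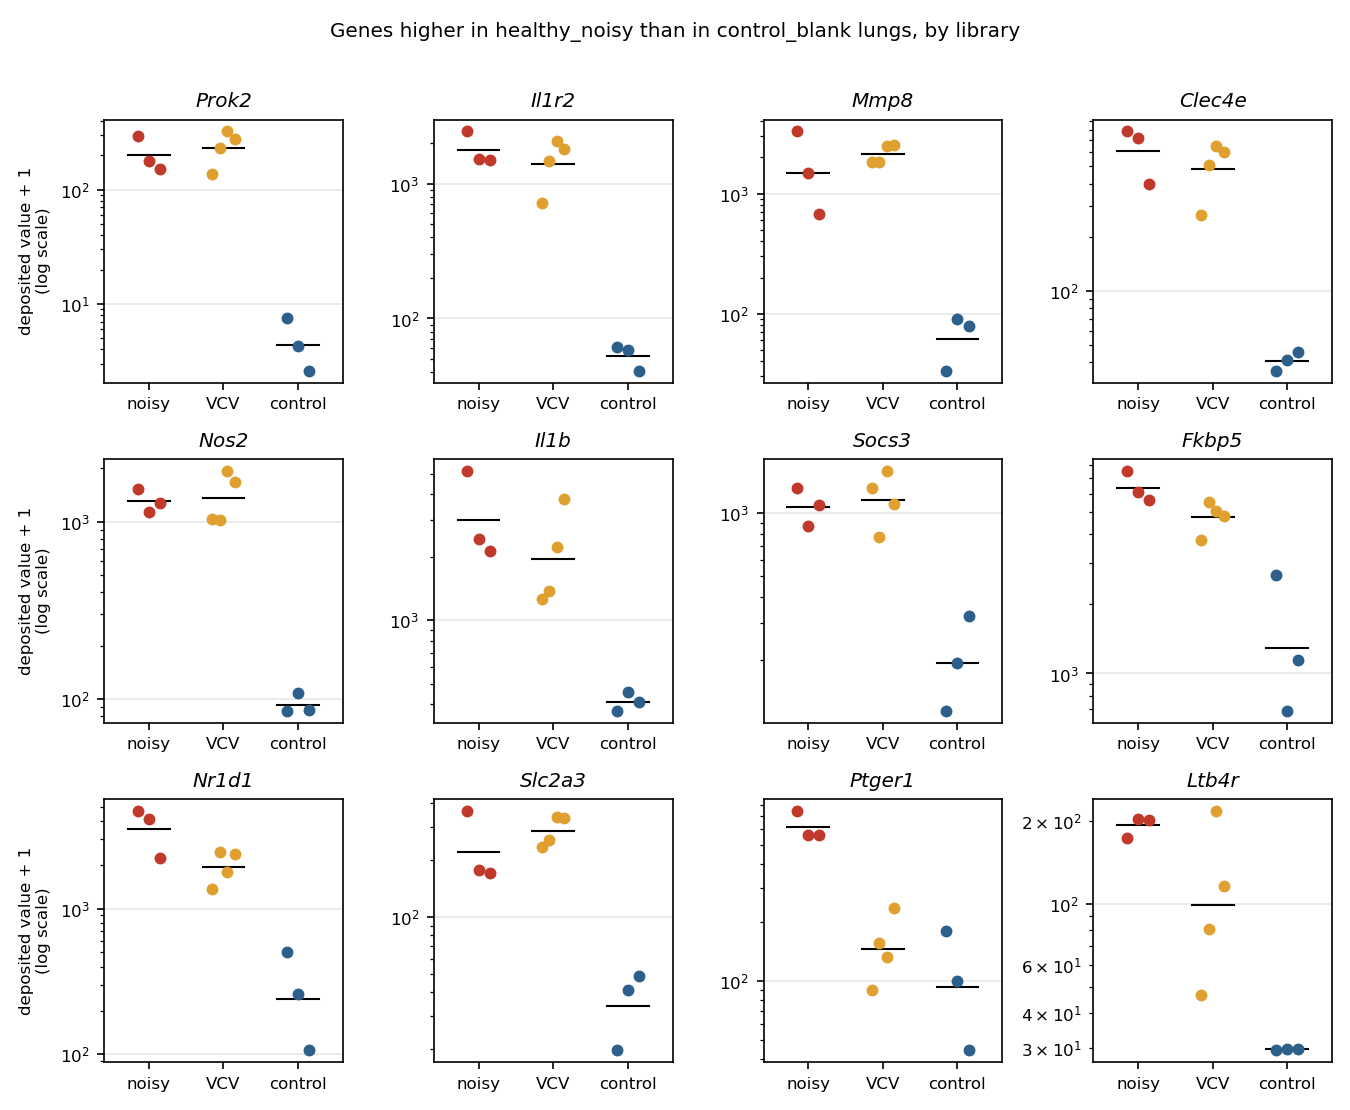
Deposited value plus 1 (y axis, log scale) of 12 genes in each library of healthy_noisy (n = 3), healthy_VCV (n = 4) and control_blank (n = 3) lungs. Points are libraries and lines are means on the log scale. In all 12 genes the healthy_noisy points lie above every control_blank point.

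Genes of macrophages, the resident phagocytes of alveoli and interstitium, were higher in 13 of 21 tested members and lower in 0, with a median change of 0.82. The count fell to 7 without healthy_noisy_029, and 6 members were called in every fit that left out 1 library. Nos2, the inducible nitric oxide synthase, measured 1531, 1128 and 1278 in healthy_noisy lungs, against 85.1, 107 and 85.5 in control_blank lungs (3.81 ± 0.66, adjusted p = 0.000275). Irg1, the mitochondrial enzyme that makes itaconate in activated macrophages, measured 333, 224 and 384 in healthy_noisy lungs, against 8.10, 17.7 and 5.59 in control_blank lungs (4.89 ± 1.22, adjusted p = 0.00463). Both sets of healthy_noisy values stood clear of the controls. Cd163, a haemoglobin scavenger receptor, was also higher, at 261, 178 and 139 in healthy_noisy and 36.5, 18.8 and 57.5 in control_blank libraries (2.42 ± 0.60, adjusted p = 0.00443). Cd68, a lysosomal protein of macrophages and the first gene of the list, differed less, at 1763, 1778 and 1292 in healthy_noisy and 725, 1065 and 1015 in control_blank libraries (0.79 ± 0.24, adjusted p = 0.0162). Members that did not pass included the alveolar macrophage genes Fabp4 (-1.16) and Pparg (0.02), the receptor Csf1r (-0.19) and Vsig4 (-1.33). The Cd68 call was lost without control_blank_016, healthy_noisy_029 or healthy_noisy_061 (0.62 to 0.72, adjusted p of 0.0532 to 0.107).

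Some receptors and cytokines of innate sensing were higher. Toll-like receptors and their adaptors, which recognise microbial and tissue debris, were higher in 8 of 15 and lower in 0 (median 0.87), and the higher count was 3 without healthy_noisy_029 and 5 without control_blank_016 or control_blank_021, and 5 by edgeR. Tlr2, the receptor for lipopeptides, had 905, 623 and 349.8 in healthy_noisy and 104, 166 and 155 in control_blank libraries (2.06 ± 0.37, adjusted p = 0.000414). Tlr1, its partner, had 150.2, 146 and 106 in healthy_noisy and 30.8, 49.2 and 52.7 in control_blank libraries (1.60 ± 0.40, adjusted p = 0.00495). In both genes all 3 healthy_noisy libraries were above the controls, and healthy_noisy_078 was the lowest of them. The interleukin 1 system had 6 higher and 1 lower of 20. Its ligand Il1b had 5127, 2437 and 2139.8 in healthy_noisy and 371, 454 and 409 in control_blank libraries (2.86 ± 0.57, adjusted p = 0.000884), and its natural antagonist Il1rn had 2367, 2123 and 1745 in healthy_noisy and 383, 751 and 533 in control_blank libraries (1.94 ± 0.53, adjusted p = 0.00792). Ligand and antagonist were thus both higher, with healthy_noisy_029 highest for each. Nlrp3, the sensor of the inflammasome that matures interleukin 1, had 769.5, 533 and 289 in healthy_noisy and 74.6, 168 and 169 in control_blank libraries (1.93 ± 0.40, adjusted p = 0.00129).

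In the interleukin 6 family, 6 of 14 genes were higher and 0 lower (median 0.70). Il6 itself was near the detection limit, at 10.4, 1.21 and 3.07 in healthy_noisy and 0.81, 3.87 and 3.20 in control_blank libraries, and its groups overlapped (log2 change 0.49, adjusted p = 0.796). Socs3, the feedback inhibitor that cytokine receptors of this family induce, had 1316, 866 and 1088 in healthy_noisy and 113.5, 191 and 323 in control_blank libraries (2.48 ± 0.40, adjusted p = 0.000154). The related ligand Osm had 81.0, 74.8 and 55.2 in healthy_noisy and 17.8, 17.1 and 17.6 in control_blank libraries (1.93 ± 0.43, adjusted p = 0.00203). The receptor Il6r had 3567, 3447 and 2937 in healthy_noisy and 1189, 1378 and 1357 in control_blank libraries (1.34 ± 0.19, adjusted p = 4.96e-05). For all 3 the groups did not overlap. Of 15 NF-kB subunits and feedback inhibitors, 3 were higher and 0 lower (median 0.60), and the higher count was 0 without healthy_noisy_029. That share is near the 17.5% of all genes, and the higher count was 6 under quantile normalization and 6 by DESeq2. All healthy_noisy values were above all control values in 11 of the 15 and below them in 0, while 39.7% of all genes did not overlap in either direction. The list median was 0.56 to 0.74 with 1 library left out. The inhibitor Nfkbia, a direct NF-kB target, had 12404, 10377 and 8696 in healthy_noisy and 8787, 3207 and 5898 in control_blank libraries, and healthy_noisy_078 lay below control_blank_016 (log2 change 0.92, adjusted p = 0.0655, and 0.97, adjusted p = 0.0365 under quantile normalization). Bcl3, a nuclear member of the inhibitor family, had 1774, 1001 and 763 in healthy_noisy and 444, 364 and 197 in control_blank libraries (1.80 ± 0.48, adjusted p = 0.00758). The Bcl3 call was lost without healthy_noisy_029 (1.46, adjusted p = 0.0566).

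None of the chemokines, the secreted attractants of leukocytes, was called higher. Of 29 tested, 0 were higher by limma (0 also at an unadjusted p under 0.05, by edgeR and by DESeq2) and 5 lower (median -0.24), and the lower count was 3 without control_blank_021. The median was -0.03 after subtracting that of each member's bin by span. All healthy_noisy values were above all control values in 4 of the 29 and below them in 6. Over all genes, 39.7% did not overlap in 1 direction or the other. Cxcl1, a ligand of the neutrophil receptor Cxcr2, had 171, 388 and 341 in healthy_noisy and 459.5, 399 and 202 in control_blank libraries, and the groups overlapped (log2 change -0.24, adjusted p = 0.812). Ccl20, which attracts cells through Ccr6, had 1.31, 9.65 and 23.5 in healthy_noisy lungs, against 305, 82.4 and 115.8 in control_blank lungs (-4.09 ± 0.92, adjusted p = 0.00226). Ccl21, made by lymphatic endothelium and lymphoid stroma, had 525, 889 and 651 in healthy_noisy lungs, against 3709, 1963 and 1841 in control_blank lungs (-1.82 ± 0.32, adjusted p = 0.000287). Ccl19, the other ligand of its receptor Ccr7, had 53.6, 113.4 and 76.7 in healthy_noisy and 1694, 387 and 206 in control_blank libraries (-2.71 ± 0.65, adjusted p = 0.00368). In each of the 3, control_blank_016 was the highest library, and all controls were above all healthy_noisy libraries. Ccr6, the receptor for Ccl20, was also lower, at 11.8, 14.5 and 7.16 in healthy_noisy and 45.4, 27.7 and 24.0 in control_blank libraries (-1.45 ± 0.42, adjusted p = 0.012). Ccr1, a receptor of monocytes and neutrophils, was higher, at 1331, 979 and 765 in healthy_noisy and 179.9, 340.2 and 312 in control_blank libraries (1.90 ± 0.40, adjusted p = 0.0013). In all, 3 of 18 chemokine receptors were higher and 2 lower, so 27.8% were called, against 32.1% of all genes. The lower count was 1 without control_blank_016, control_blank_074, healthy_noisy_029 or healthy_noisy_078. The Ccl20 change was -3.15 without healthy_noisy_029 and -4.86 without healthy_noisy_078. The Ccl19 change was -1.85 without control_blank_016 and -3.37 without control_blank_074. The Ccr6 call was lost without control_blank_016 (-1.19, adjusted p = 0.0784) and without healthy_noisy_078 (-1.19, adjusted p = 0.063).

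Interferon-induced genes, the antiviral set that STAT and IRF factors switch on, were higher in 4 of 21 and lower in 0 (median 0.68), and the higher count was 1 without control_blank_016 and 2 without healthy_noisy_078. That is near the 17.5% of all genes. Ifit3, which binds viral RNA complexes, had 1804, 1969 and 3849 in healthy_noisy lungs, against 158, 460.2 and 275 in control_blank lungs (3.13 ± 0.55, adjusted p = 0.000297). Oas1a, which makes the activator of the antiviral ribonuclease L, had 391, 455 and 884 in healthy_noisy and 191, 334 and 239.7 in control_blank libraries (1.12 ± 0.36, adjusted p = 0.0204). Oasl, a relative of the same enzymes, had 374, 400.4 and 728 in healthy_noisy and 65.6, 208 and 102 in control_blank libraries (2.08 ± 0.55, adjusted p = 0.00668). In each gene healthy_noisy_078 was the highest library and control_blank_021 the highest control. The GTPase Mx1 showed the same library far above the rest, at 227, 329 and 4849 in healthy_noisy and 337, 829.8 and 559 in control_blank libraries, with overlapping groups (log2 change 0.41, adjusted p = 0.777). The Oas1a call was lost without control_blank_016 (0.93, adjusted p = 0.106) and without healthy_noisy_078 (0.76, adjusted p = 0.135). The Oasl call was lost without control_blank_016 (1.70, adjusted p = 0.0515).

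Upstream sequences of Ifit3 and Oas1a are shown because both genes rose and both hold TTTC, any 2 bases and TTTC in a row, the core of the element that interferon-activated factors bind. They are the 250 bases before the start in RefSeq (GRCr8, plus strand), of Ifit3 at chr1:241527076-241527325 and of Oas1a at chr12:41330216-41330465. Capitals mark the motif on either strand, at -44 in Ifit3 and, as overlapping copies read on the other strand, at -41 and -35 in Oas1a.
Ifit3: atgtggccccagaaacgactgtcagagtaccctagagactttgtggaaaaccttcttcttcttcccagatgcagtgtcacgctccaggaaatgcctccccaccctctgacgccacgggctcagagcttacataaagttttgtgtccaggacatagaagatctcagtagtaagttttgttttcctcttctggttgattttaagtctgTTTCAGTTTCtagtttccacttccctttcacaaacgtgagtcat
Oas1a: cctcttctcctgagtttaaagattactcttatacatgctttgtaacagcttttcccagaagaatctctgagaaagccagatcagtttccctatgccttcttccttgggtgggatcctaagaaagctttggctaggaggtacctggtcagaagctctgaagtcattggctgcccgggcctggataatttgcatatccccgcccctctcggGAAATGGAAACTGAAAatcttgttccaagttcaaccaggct
The motif was in 9 of 14 listed genes with an entry, in 2 of the 4 that rose, and in 3.92% of all promoters. Members with the motif that did not pass the test were Oas1b, Rsad2, Irf7, Ifih1, Gbp5, Ifi27 and Ifitm3, and members that rose without it in this window were Oasl and Irf9. The Irf9 call was lost without control_blank_016, control_blank_074 or healthy_noisy_078 (0.45 to 0.63, adjusted p of 0.0841 to 0.213). It was also lost by edgeR (0.64, adjusted p = 0.0634) and after TMM scaling (0.61, adjusted p = 0.07).

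Some feedback genes of growth factor signalling were higher. Of 13 phosphatases and Sprouty proteins that damp MAP kinases, 5 were higher and 0 lower (median 0.68). Dusp4, a nuclear phosphatase of ERK, had 284, 216 and 359 in healthy_noisy and 47, 66.9 and 119 in control_blank libraries (1.94 ± 0.33, adjusted p = 0.00021). Spry1, an inhibitor of receptor tyrosine kinase signalling, had 2484, 2592 and 2486 in healthy_noisy and 808, 1514.01 and 1035 in control_blank libraries (1.22 ± 0.19, adjusted p = 0.000132). Both were above every control in all 3 healthy_noisy libraries. Of 10 EGF ligands and receptors, 3 were higher and 0 lower. Erbb3, a receptor for neuregulins, had 2901, 2197 and 4013 in healthy_noisy and 737, 657 and 922 in control_blank libraries (1.95 ± 0.33, adjusted p = 0.000216), and Egf had 122, 121 and 83.9 in healthy_noisy and 41.3, 33.2 and 40.7 in control_blank libraries (1.46 ± 0.31, adjusted p = 0.00133). Immediate early factors of the AP-1 and EGR families were higher in 5 of 19 and lower in 0, and the higher count was 2 without control_blank_016 or control_blank_021 and 3 without healthy_noisy_029. Fos, the first gene of that list, had 374, 510.1 and 1296 in healthy_noisy and 105.3, 222 and 1177 in control_blank libraries, and control_blank_074 lay among the healthy_noisy values (log2 change 1.05, adjusted p = 0.278). The small Maf protein Maff had 1122, 1059 and 1274 in healthy_noisy and 577, 512 and 365 in control_blank libraries without overlap (1.27 ± 0.30, adjusted p = 0.00317).

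Targets of YAP, the coactivator that responds to stretch and stiffness, were more often higher than lower. Of 18, 7 were higher and 2 lower (median 0.52), and the higher count was 3 without healthy_noisy_078 and 4 without control_blank_016 or healthy_noisy_029. Ctgf, the textbook YAP target and a matrix regulator, was lower, with 1779.5, 1991 and 2820.0 in healthy_noisy lungs, against 3610.4, 4399 and 5710.2 in control_blank lungs (-1.06 ± 0.25, adjusted p = 0.0027). Ankrd1, a stretch-sensitive repeat protein that cardiac muscle also makes in quantity, was lower as well, with 199.9, 209.8 and 166 in healthy_noisy lungs, against 1450.7, 2014 and 1905 in control_blank lungs (-3.21 ± 0.42, adjusted p = 2.56e-05). No healthy_noisy library reached the lowest control in either gene. The receptor tyrosine kinase Axl was higher, with 3601, 2409.5 and 2523 in healthy_noisy and 771, 1506 and 1613 in control_blank libraries (1.18 ± 0.26, adjusted p = 0.00212), and so was the stress gene Gadd45b, with 4201, 3482 and 3426 in healthy_noisy and 1615, 1602 and 1362 in control_blank libraries (1.28 ± 0.22, adjusted p = 0.000267). Cyr61, a close relative of Ctgf, was at 1143, 1474 and 4268 in healthy_noisy and 1099.7, 2126 and 3672 in control_blank libraries, and its groups overlapped (log2 change -0.09, adjusted p = 0.917).

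Targets of glucocorticoids, the adrenal stress steroids, were higher in 7 of 16 and lower in 0 (median 0.98), and the higher count was 4 without control_blank_021. Zbtb16, a transcription factor induced by the glucocorticoid receptor, had 2887, 1802 and 2758 in healthy_noisy lungs, against 578, 147 and 256 in control_blank lungs (3.12 ± 0.63, adjusted p = 0.00102). Fkbp5, a chaperone that feeds back on that receptor, had 7493, 6087 and 5617 in healthy_noisy lungs, against 2670.3, 689.8 and 1146 in control_blank lungs (2.31 ± 0.48, adjusted p = 0.00131). In both genes control_blank_016 was the highest control and still below every healthy_noisy library. Pdk4, a kinase that blocks pyruvate oxidation, had 576, 358 and 557 in healthy_noisy and 152, 43.7 and 177 in control_blank libraries (2.19 ± 0.59, adjusted p = 0.00799). Tsc22d3, the leucine zipper protein known as GILZ, had 13977, 14270.3 and 14073 in healthy_noisy and 13287, 5249.5 and 11385 in control_blank libraries and did not pass (log2 change 0.61, adjusted p = 0.298). The Pdk4 call was lost without control_blank_021 (1.56, adjusted p = 0.0647).

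The circadian clock, the loop in which CLOCK and BMAL1 drive their own repressors, moved as well. Of 15 tested genes, 6 were higher and 2 lower (median 0.68), and the higher count was 2 without healthy_noisy_029 and 3 without control_blank_021 and the lower count 0 without healthy_noisy_029 and 1 without control_blank_016, control_blank_021, control_blank_074 or healthy_noisy_061. Nr1d1, the nuclear receptor REV-ERB alpha that represses Bmal1, had 4656, 4094 and 2234 in healthy_noisy lungs, against 502, 257 and 105.5 in control_blank lungs (3.86 ± 0.43, adjusted p = 9.64e-06). The lowest healthy_noisy library was more than 4 times the highest control. Per3, a period gene of the repressor arm, had 1235, 1027 and 606 in healthy_noisy and 199, 199 and 259.6 in control_blank libraries (2.07 ± 0.32, adjusted p = 0.000123). Per1, which steroids and light also induce, had 9108, 8170.5 and 5596 in healthy_noisy and 4104, 1325 and 4448 in control_blank libraries (1.37 ± 0.41, adjusted p = 0.0148). Arntl, the gene of BMAL1, was lower in 2 of 3 healthy_noisy libraries, at 547, 486 and 836 in healthy_noisy and 836, 855 and 823 in control_blank libraries, and did not pass (log2 change -0.47, adjusted p = 0.0621, and -0.54, adjusted p = 0.0366 after TMM scaling). Cry1, a repressor of the late phase, was lower, at 321, 364 and 523 in healthy_noisy and 525, 669 and 766 in control_blank libraries (-0.71 ± 0.25, adjusted p = 0.036). The time of day at which each lung was taken is not given in the sources used here. The Nr1d1 change was 3.28 without control_blank_074. The Per1 call was lost without control_blank_021 (0.81, adjusted p = 0.133) and without healthy_noisy_029 (1.22, adjusted p = 0.067). The Cry1 call was lost without control_blank_021, control_blank_074, healthy_noisy_029 or healthy_noisy_061 (-0.69 to -0.56, adjusted p of 0.0866 to 0.157).

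Genes of glucose uptake and glycolysis moved unevenly, with 9 of 29 higher and 3 lower (median 0.15). Slc2a3, the high-affinity glucose transporter that leukocytes and neurons use, had 363, 176 and 169.8 in healthy_noisy lungs, against 18.6, 39.8 and 47.9 in control_blank lungs (2.71 ± 0.42, adjusted p = 0.000109). Pfkfb3, which makes the activator of phosphofructokinase, had 1757, 1376 and 1897 in healthy_noisy lungs, against 284, 173 and 504 in control_blank lungs (2.51 ± 0.47, adjusted p = 0.000547). Slc16a3, a lactate exporter, had 821, 662 and 418 in healthy_noisy and 122, 152 and 117.4 in control_blank libraries (2.23 ± 0.26, adjusted p = 1.02e-05). Hk3, the hexokinase of myeloid cells, had 810.0, 904 and 565 in healthy_noisy and 190.4, 140.5 and 173 in control_blank libraries (2.15 ± 0.34, adjusted p = 0.000142). All 4 were above the controls in every healthy_noisy library, and 7 of the 9 higher genes were called in each fit that left out 1 library. Lactate dehydrogenase Ldha was lower instead, at 2591, 3136 and 2892 in healthy_noisy and 4813, 4438 and 3539.8 in control_blank libraries (-0.56 ± 0.20, adjusted p = 0.0343), and Vegfa, the hypoxia-induced endothelial growth factor, was lower at 17086, 17005 and 12938 in healthy_noisy and 22343, 26805 and 25669 in control_blank libraries (-0.68 ± 0.25, adjusted p = 0.0399). The lower count was 0 without control_blank_016, control_blank_021, healthy_noisy_029 or healthy_noisy_078. Epas1, the HIF-2 alpha factor of lung endothelium, had 34868, 22888 and 46490.2 in healthy_noisy and 6082, 11705 and 16643 in control_blank libraries (1.66 ± 0.33, adjusted p = 0.000943). The Ldha call was lost without control_blank_016, control_blank_021, healthy_noisy_029 or healthy_noisy_078 (-0.57 to -0.47, adjusted p of 0.0689 to 0.146). The Vegfa call was lost without any 1 library (-0.75 to -0.54, adjusted p of 0.0501 to 0.151). It was also lost under quantile normalization (-0.70, adjusted p = 0.0717).

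Nuclear genes of the respiratory chain were lower as a group. Of 71 tested, 0 were higher and 49 lower (median -0.55), and 35 were called in every fit that left out 1 library. The ATP synthase subunit Atp5l had 1633, 2188 and 1956.7 in healthy_noisy and 4743, 4100.1 and 3495 in control_blank libraries (-1.09 ± 0.17, adjusted p = 8.51e-05), and the complex I subunit Ndufa2 had 613, 640.4 and 672 in healthy_noisy and 1632, 1440.4 and 1058 in control_blank libraries (-1.08 ± 0.18, adjusted p = 0.000199). Cytosolic ribosomal proteins were higher in 0 of 66 and lower in 34 (median -0.49), and the lower count was 20 without control_blank_016 and 22 without healthy_noisy_078. Rps27, of the small subunit, had 7779, 9282 and 7035 in healthy_noisy and 25316, 23387 and 20043 in control_blank libraries (-1.52 ± 0.23, adjusted p = 7.87e-05). Each of these genes separated the groups, with the controls higher. Proteasome subunits had 0 higher and 12 lower of 32, and the lower count was 5 without control_blank_016, and heat shock proteins and chaperones 0 higher and 10 lower of 27, and the lower count was 2 without healthy_noisy_029, 3 without control_blank_016 and 6 without healthy_noisy_061. The median span was 7637 bases for the respiratory chain, 3128 for ribosomal proteins, 12320 for the proteasome and 12775 for chaperones, and in the shortest bin (median 4333 bases) of all genes 8.89% were higher and 24.1% lower. After subtracting the median of each member's bin, the list medians were -0.40 for the respiratory chain, -0.30 for ribosomal proteins, -0.17 for the proteasome and -0.35 for chaperones.

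Stress of protein folding and amino acid supply was read from 32 genes, of which 10 were higher and 1 lower, and the higher count was 5 without healthy_noisy_029 and 6 without control_blank_021 or healthy_noisy_078. Trib3, a pseudokinase induced by the factors ATF4 and CHOP, had 648, 476 and 484 in healthy_noisy lungs, against 118, 84.1 and 56.7 in control_blank lungs (2.67 ± 0.35, adjusted p = 2.43e-05). Ern1, the endoplasmic reticulum sensor IRE1, had 504, 402 and 539 in healthy_noisy and 94.0, 94.6 and 220.5 in control_blank libraries (1.92 ± 0.35, adjusted p = 0.000416). Healthy_noisy libraries were above the controls for both. Among antioxidant and metal-binding genes 5 of 24 were higher and 3 lower, near the 17.5% and 14.6% of all genes, and the lower count was 1 without control_blank_016, control_blank_021, healthy_noisy_029 or healthy_noisy_061. The metallothionein Mt2A, which binds zinc, had 311, 332 and 1140.5 in healthy_noisy and 154, 22.1 and 70.3 in control_blank libraries (2.95 ± 0.76, adjusted p = 0.00581). Its control values were scattered and healthy_noisy_078 was the highest library. Peroxiredoxin Prdx1 was lower, at 608, 836 and 879.7 in healthy_noisy and 2148, 1404 and 1634 in control_blank libraries (-1.15 ± 0.18, adjusted p = 8.51e-05). Of 24 genes of cholesterol synthesis and uptake, 8 were higher and 1 lower, and the higher count was 2 without control_blank_016 or healthy_noisy_029 and 4 without healthy_noisy_078. The Mt2A change was 3.60 without control_blank_016, 2.22 without control_blank_021 and 2.34 without healthy_noisy_078.

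Of 24 genes of prostaglandins and leukotrienes, 5 were higher and 1 lower (median 0.08), a higher share near the 17.5% of all genes. The called members named here are receptors. Ptger1, a receptor of prostaglandin E2, had 742, 562 and 559.5 in healthy_noisy lungs, against 179.9, 99.0 and 43.1 in control_blank lungs (2.73 ± 0.65, adjusted p = 0.00336). Ptger4, another receptor of the same ligand, had 159, 134 and 162 in healthy_noisy and 21.1, 48.7 and 71.1 in control_blank libraries (1.83 ± 0.40, adjusted p = 0.00185). Ltb4r, through which leukotriene B4 attracts neutrophils, had 172, 203 and 200.5 in healthy_noisy and 28.4, 28.8 and 28.8 in control_blank libraries (2.70 ± 0.50, adjusted p = 0.000465). The control values of Ltb4r were within 1 unit of each other, and the groups of all 3 genes stood apart. Ptgs2, the inducible cyclooxygenase, had 57.5, 97.7 and 147 in healthy_noisy and 51.9, 37.1 and 101.5 in control_blank libraries and did not pass (log2 change 0.68, adjusted p = 0.279).

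In clotting and fibrinolysis 6 of 20 genes were higher and 1 lower. F2rl2, a thrombin receptor, had 418, 215 and 159 in healthy_noisy and 21.9, 31.0 and 31.9 in control_blank libraries (3.07 ± 0.54, adjusted p = 0.000307), and Plaur, the receptor of urokinase, had 132, 96.5 and 110.5 in healthy_noisy and 25.1, 22.7 and 26.4 in control_blank libraries (2.14 ± 0.47, adjusted p = 0.00194). The plasminogen activator Plat had 6183, 5972 and 9648 in healthy_noisy and 2592, 2537 and 3239 in control_blank libraries (1.35 ± 0.34, adjusted p = 0.00493). Each was above all controls in all 3 healthy_noisy libraries. Complement genes were higher in 5 of 18 and lower in 1 (median 0.66), and the higher count was 2 without control_blank_021 and 3 without control_blank_016, healthy_noisy_029 or healthy_noisy_078. C4b, a component of the classical pathway, had 11963, 6289 and 22226 in healthy_noisy and 2384, 1869.7 and 1533 in control_blank libraries (2.64 ± 0.77, adjusted p = 0.0118) and was highest in healthy_noisy_078. Of 16 metalloproteinases and inhibitors 4 were higher and 2 lower, so 37.5% were called, against 32.1% of all genes. The largest changes were those of Mmp8 and Mmp9, which are also in the neutrophil list. The lower count was 0 without control_blank_016 or healthy_noisy_029 and 1 without control_blank_021, healthy_noisy_061 or healthy_noisy_078. Collagens, laminins and provisional matrix had 8 higher and 1 lower of 31, and the higher count was 1 without control_blank_016, 2 without healthy_noisy_078 and 3 without control_blank_021 or healthy_noisy_029, and 5 by edgeR or after TMM scaling. The basement membrane collagen Col4a3 had 7366, 5135 and 5770.0 in healthy_noisy and 2025, 2308 and 4079.8 in control_blank libraries (1.17 ± 0.25, adjusted p = 0.00132). Matrix genes are long (median span 43431 bases), and their median of 0.53 was 0.43 after subtracting that of each member's bin. The C4b call was lost without healthy_noisy_078 (2.19, adjusted p = 0.0613).

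**Figure D3:**
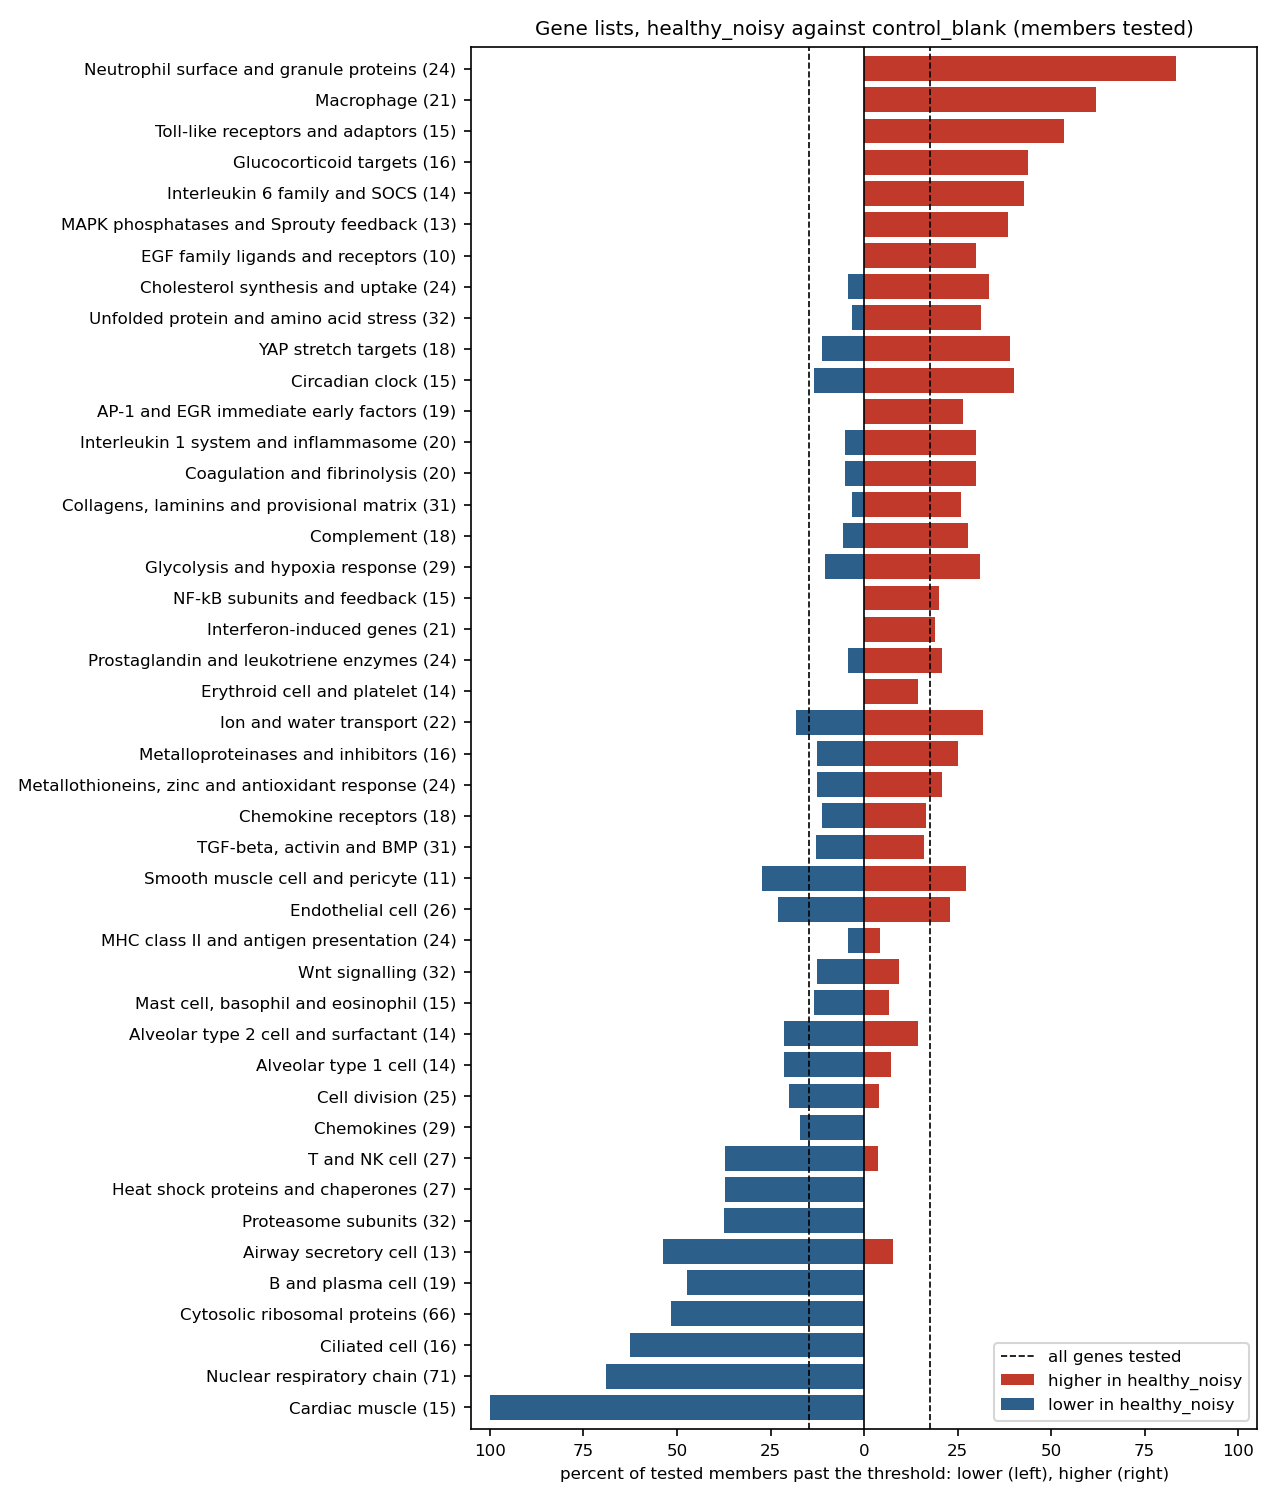
Share of tested members of each of 44 gene lists past the threshold (x axis, percent, higher in healthy_noisy to the right and lower to the left). Dashed lines mark 17.5% and 14.6%, the shares over all genes tested. Neutrophil genes lead on the right with 20 of 24, and cardiac muscle on the left with 15 of 15.

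Airway epithelial genes that passed the test were lower, with 1 exception among secretory genes. Secretory cells of the airway, which line bronchioles with Clara cell proteins, had 1 gene higher and 7 lower of 13 (median -1.41), and the lower count was 3 without healthy_noisy_029. Scgb1a1, the Clara cell secretoglobin, had 234269, 397395 and 283598 in healthy_noisy lungs, against 1286166, 564962 and 482732 in control_blank lungs (-1.24 ± 0.39, adjusted p = 0.0182). Agr2, a disulfide isomerase of mucus-making cells, had 83.6, 111 and 328 in healthy_noisy lungs, against 1813, 696 and 1392 in control_blank lungs (-3.05 ± 0.49, adjusted p = 0.000144). The controls were above the healthy_noisy libraries in both. The goblet and club cell secretoglobin Scgb3a1 had 7.84, 10.8 and 1659 in healthy_noisy and 2078.7, 1259 and 5593 in control_blank libraries (-5.45 ± 1.49, adjusted p = 0.0085), so healthy_noisy_078 lay among the controls and the other 2 at a few reads. Ciliated cells had 0 genes higher and 10 lower of 16 (median -1.06), and the lower count was 4 without control_blank_016 or healthy_noisy_029. Sntn, a protein of the ciliary tip, had 103, 201 and 269 in healthy_noisy and 1392, 544 and 711 in control_blank libraries (-2.19 ± 0.43, adjusted p = 0.000842), and the dynein light chain Dynlrb2 had 398, 886 and 1033 in healthy_noisy and 4547, 1871.4 and 1976 in control_blank libraries (-1.84 ± 0.39, adjusted p = 0.00148). Ciliated genes were highest in control_blank_016 as a list, and secretory genes in control_blank_016 and control_blank_074. For secretory genes the mean log2 level was 9.04, 9.26 and 11.43 in healthy_noisy libraries and 11.96, 10.89 and 11.99 in control_blank libraries. For ciliated genes it was 8.20, 8.70 and 9.09 in healthy_noisy libraries and 9.86, 8.91 and 9.61 in control_blank libraries. The Scgb1a1 call was lost without control_blank_016 (-0.81, adjusted p = 0.158) and without healthy_noisy_029 (-1.07, adjusted p = 0.0857). The Agr2 change was -3.63 without healthy_noisy_078. The Scgb3a1 call was lost without healthy_noisy_029 (-4.13, adjusted p = 0.0693) and the Scgb3a1 change was -4.86 without control_blank_074, -4.34 without healthy_noisy_061 and -7.90 without healthy_noisy_078. The Scgb1a1 call was also lost under quantile normalization (-0.25, adjusted p = 0.5), and the Scgb3a1 call by edgeR (-2.44, adjusted p = 0.141) and DESeq2 (-2.41, adjusted p = 0.132).

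Alveolar type 2 cells, which make surfactant, had 2 genes higher and 3 lower of 14 (median 0.02). The share called was 35.7%, near the 32.1% of all genes. The higher count was 1 without healthy_noisy_029 and the lower count 0 without healthy_noisy_029 and 1 without control_blank_016, control_blank_021 or healthy_noisy_061. Sftpc did not pass (-0.20, adjusted p = 0.537), nor did Sftpb (0.23, adjusted p = 0.525). Slc34a2, the phosphate transporter of these cells, was higher, at 59547, 44701 and 47079 in healthy_noisy lungs, against 26435, 25045 and 25338 in control_blank lungs (0.97 ± 0.19, adjusted p = 0.00087). The desaturases Scd (1.27, adjusted p = 0.026) and Scd1 (-1.72, adjusted p = 0.0315) moved in opposite directions. Both are uncertain, since each call was lost in several fits that left out 1 library. Whether reads were shared between these related genes was not tested. Type 1 cells, the thin cells of gas exchange, had 1 gene higher and 3 lower of 14, all 4 called in every fit that left out 1 library. The water channel Aqp5 had 3457, 3622 and 2578 in healthy_noisy lungs, against 11042, 14320.4 and 10405 in control_blank lungs (-1.89 ± 0.37, adjusted p = 0.000687). Podoplanin (Pdpn), a membrane protein of their apical side, had 5291, 5532 and 5603 in healthy_noisy lungs, against 10002, 12648 and 10286 in control_blank lungs (-1.0 ± 0.15, adjusted p = 6.98e-05). In both, the controls were well above the healthy_noisy libraries, which lay close together, while the type 1 gene Hopx had 15544, 15001 and 13648 in healthy_noisy and 13758, 14567 and 12073 in control_blank libraries and did not pass (log2 change 0.13, adjusted p = 0.563). The Scd call was lost without control_blank_016, healthy_noisy_029 or healthy_noisy_078 (0.82 to 1.17, adjusted p of 0.0801 to 0.197). The Scd1 call was lost without control_blank_016, control_blank_021, healthy_noisy_029 or healthy_noisy_078 (-1.92 to -1.38, adjusted p of 0.0508 to 0.128).

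Ion and water transport, which keeps alveoli dry, had 7 genes higher and 4 lower of 22, and the higher count was 3 without healthy_noisy_029 and 4 without control_blank_016 or control_blank_021, and 4 by edgeR. The sodium channel subunits went apart. Scnn1a had 20069.7, 18345 and 16791 in healthy_noisy and 10420.4, 7639.8 and 7733 in control_blank libraries (1.11 ± 0.22, adjusted p = 0.000725), Scnn1b had 938, 847 and 825 in healthy_noisy and 1759, 1363 and 1344 in control_blank libraries (-0.77 ± 0.15, adjusted p = 0.000838), and Scnn1g had 1659, 1457 and 1206.98 in healthy_noisy and 1759, 1443.8 and 1743 in control_blank libraries and did not pass (log2 change -0.20, adjusted p = 0.531). The alpha subunit was thus higher and the beta subunit lower, without overlap of the groups in either. The alkaline ceramidase Acer2, which was among the most abundant genes called, had 43911, 41769 and 45045 in healthy_noisy lungs, against 13882, 13488 and 11292 in control_blank lungs (1.76 ± 0.21, adjusted p = 1.1e-05). It was nearly even within each group.

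Endothelial genes went both ways, with 6 higher and 6 lower of 26 (median 0.04), against 17.5% higher and 14.6% lower over all genes. The higher count was 2 without control_blank_016 and the lower count 3 without healthy_noisy_029 or healthy_noisy_061. Pecam1, the general endothelial marker, had 7113, 7335 and 5906 in healthy_noisy and 8519.9, 11021 and 6722 in control_blank libraries and did not pass (log2 change -0.34, adjusted p = 0.315). The adhesion molecule Icam1 was lower, at 6243, 5392 and 4406 in healthy_noisy and 8920.3, 13673 and 9913 in control_blank libraries (-1.01 ± 0.27, adjusted p = 0.00754), and the capillary sialomucin Emcn was lower, at 1177, 988 and 845 in healthy_noisy and 1653, 2743 and 3086 in control_blank libraries (-1.28 ± 0.33, adjusted p = 0.00563). The sphingosine receptor S1pr1, which tightens the barrier, was higher, at 6309, 5263 and 8026 in healthy_noisy and 1775, 3038 and 3521 in control_blank libraries (1.27 ± 0.26, adjusted p = 0.00114), as was Esm1, a proteoglycan that endothelium secretes, at 818, 749 and 621 in healthy_noisy and 160.5, 345 and 324 in control_blank libraries (1.47 ± 0.36, adjusted p = 0.00379). These 4 genes separated the groups. The TGF-beta, activin and BMP list had 5 higher and 4 lower of 31, near the 17.5% and 14.6% of all genes (3 higher after TMM scaling), and the higher count was 2 without control_blank_016 and 3 without healthy_noisy_029 or healthy_noisy_078 and the lower count 1 without healthy_noisy_029 and 2 without control_blank_016, control_blank_021, control_blank_074 or healthy_noisy_061. Tgfbr3, the co-receptor betaglycan, had 2421, 1719.7 and 3376 in healthy_noisy and 281, 493 and 887 in control_blank libraries (2.28 ± 0.38, adjusted p = 0.00019). Of 32 Wnt genes 3 were higher and 4 lower, so 21.9% were called, against 32.1% of all genes. The higher count was 1 without control_blank_016 or healthy_noisy_078 and 5 without control_blank_074. The secreted Wnt binder Sfrp2 had 311, 168 and 209.7 in healthy_noisy and 1404, 716 and 896 in control_blank libraries (-2.12 ± 0.39, adjusted p = 0.000478).

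Lymphocyte genes that passed the test were lower, with 1 exception among T and NK cell genes. B and plasma cells had 0 genes higher and 9 lower of 19 (median -1.21), and the lower count was 4 without control_blank_021. Ms4a1, the B cell antigen CD20, had 83.6, 50.6 and 86.9 in healthy_noisy lungs, against 383, 329.7 and 280.4 in control_blank lungs (-2.18 ± 0.52, adjusted p = 0.00349). Cd79b, a chain of the B cell receptor, had 247, 204 and 188 in healthy_noisy lungs, against 995, 1126 and 713 in control_blank lungs (-2.13 ± 0.59, adjusted p = 0.00928). T and NK cells had 1 higher and 10 lower of 27 (median -0.70), and the lower count was 2 without control_blank_021 or healthy_noisy_078 and 6 without control_blank_074. Cd8b, of the killer cell coreceptor, had 24.8, 39.8 and 25.6 in healthy_noisy and 59.2, 88.0 and 93.5 in control_blank libraries (-1.39 ± 0.36, adjusted p = 0.00568), and Cd6, a surface receptor of T cells, had 169.8, 135 and 97.2 in healthy_noisy and 269.9, 464 and 383 in control_blank libraries (-1.47 ± 0.39, adjusted p = 0.0071). None of these 4 genes overlapped between the groups. For B cell genes the mean log2 level was 6.28, 6.36 and 5.88 in healthy_noisy libraries and 7.34, 7.73 and 7.37 in control_blank libraries. For T and NK cell genes it was 7.56, 7.38 and 6.94 in healthy_noisy libraries and 7.18, 8.22 and 7.98 in control_blank libraries, and control_blank_016 lay among the healthy_noisy libraries there. Genes of antigen presentation had 1 higher and 1 lower of 24, the second count being 4 by edgeR or after TMM scaling. Genes of mast cells, basophils and eosinophils had 1 higher and 2 lower of 15, and the lower count was 0 without control_blank_016 or healthy_noisy_029 and 1 without healthy_noisy_078. Genes of erythroid cells and platelets had 2 higher and 0 lower of 14, and the higher count was 0 without control_blank_016, control_blank_021, healthy_noisy_029 or healthy_noisy_078. Cell division genes had 1 higher and 5 lower of 25, and the lower count was 2 without healthy_noisy_029 and 3 without control_blank_016. Aurkb, a mitotic kinase, had 199.9, 271 and 495 in healthy_noisy and 1689, 870.1 and 1591 in control_blank libraries (-2.14 ± 0.39, adjusted p = 0.000421).

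Cardiac muscle genes had the lowest median of the 44 lists. All 15 of 15 tested members were lower and 0 were higher (median -4.25), and 11 were called in every fit that left out 1 library. Myoglobin (Mb), the oxygen store of muscle, had 0, 8.44 and 44.0 in healthy_noisy lungs, against 349, 1154 and 1336 in control_blank lungs (-6.76 ± 1.63, adjusted p = 0.00372). Tnnt2, cardiac troponin T, had 64.0, 109.7 and 173 in healthy_noisy lungs, against 889.8, 1351 and 1742 in control_blank lungs (-3.57 ± 0.68, adjusted p = 0.000601). Actc1, cardiac actin, had 171, 333 and 224 in healthy_noisy lungs, against 2383, 3413 and 3814 in control_blank lungs (-3.74 ± 0.68, adjusted p = 0.000409). The healthy_noisy libraries were below every control in all 3, and healthy_noisy_029 was the lowest. A count of 0 in that library allows up to 3 reads, or 3.92 deposited units. The mean log2 level of the list was 3.18, 5.02 and 5.85 in healthy_noisy libraries and 8.16, 9.03 and 9.38 in control_blank libraries, so the healthy_noisy libraries differed among themselves by more than 2 units. Skeletal muscle actin Acta1 was also lower, at 10.4, 22.9 and 23.5 in healthy_noisy and 101.3, 96.8 and 95.1 in control_blank libraries (-2.39 ± 0.46, adjusted p = 0.000632). Of 11 genes of smooth muscle and pericytes 3 were higher and 3 lower, and the higher count was 5 without control_blank_074. Desmin (Des), a filament of muscle cells, had 1679, 1811 and 1599.8 in healthy_noisy and 7001, 5122 and 4935 in control_blank libraries (-1.73 ± 0.21, adjusted p = 1.63e-05), and the enteric actin Actg2 had 644, 894 and 704 in healthy_noisy and 3647, 2545 and 2265 in control_blank libraries (-1.90 ± 0.31, adjusted p = 0.000193). How much vein wall and attached heart muscle each sample held was not tested. The Mb change was -7.37 without control_blank_016, -5.31 without healthy_noisy_029 and -8.05 without healthy_noisy_078.

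**Figure D4:**
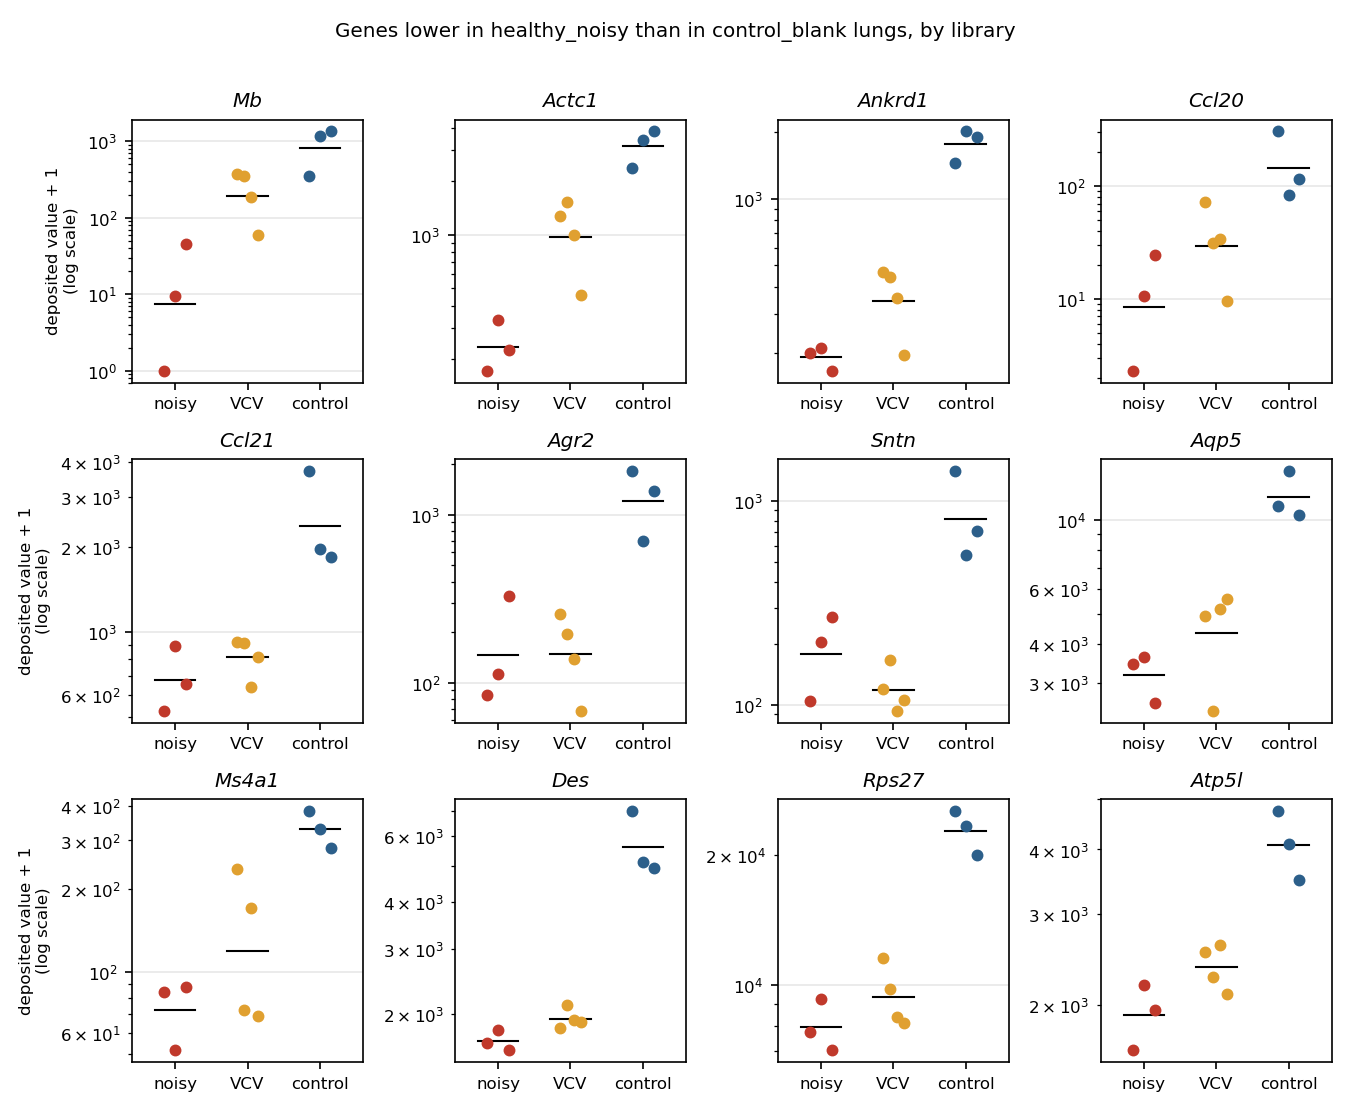
Deposited value plus 1 (y axis, log scale) of 12 genes in each library of healthy_noisy (n = 3), healthy_VCV (n = 4) and control_blank (n = 3) lungs. Points are libraries and lines are means on the log scale. All 12 genes are lower in every healthy_noisy library than in every control_blank library, and Mb spans 0 to 44.0 within healthy_noisy.

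Among genes named for the size of their change, the highest was RT1-N1, a class I histocompatibility gene with close paralogues, which had 429, 45.8 and 311 in healthy_noisy lungs, against 0.81, 0.55 and 0.80 in control_blank lungs (6.75 ± 2.35, adjusted p = 0.0318). Each control value is that of 1 read, and healthy_VCV libraries ranged from 1.66 to 319.8, so libraries differed within a group. Whether reads were shared with its copies was not tested. With a pseudocount of 10 the RT1-N1 call was lost in limma (4.21, adjusted p = 0.0761). The RT1-N1 call was lost without control_blank_016, control_blank_021, control_blank_074, healthy_noisy_029 or healthy_noisy_078 (6.14 to 6.79, adjusted p of 0.0516 to 0.105) and the RT1-N1 change was 7.74 without healthy_noisy_061. On the lower side, Glycam1, an adhesion molecule of lymph node vessels and glands, had 0, 53.1 and 51.1 in healthy_noisy and 1459, 247 and 167 in control_blank libraries (-4.80 ± 1.43, adjusted p = 0.0138). The Glycam1 call was lost without control_blank_016 (-3.85, adjusted p = 0.0913) and without healthy_noisy_029 (-2.89, adjusted p = 0.135) and the Glycam1 change was -5.41 without control_blank_074, -5.77 without healthy_noisy_061 and -5.74 without healthy_noisy_078.

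The second comparison, healthy_noisy against healthy_VCV, asks what variable breaths changed beyond ventilation itself. Limma with Benjamini-Hochberg adjustment called 1538 of 14908 genes (10.3%), 642 (4.31%) higher and 896 (6.01%) lower in healthy_noisy. Number series and group were also partly confounded, since 3 healthy_VCV libraries have numbers beginning with 14 and only healthy_VCV_062 one with 15. With the series as a covariate limma called 0 genes, although 1582 had an unadjusted p under 0.05, and 0 genes (963 unadjusted) against healthy_VCV_062 alone, which assumes that the lone library varies like the other groups. With both groups whole edgeR called 1429 and DESeq2 2684, and TMM scaling gave 472 higher and 1074 lower. The count also rested on single libraries, with 1 call without healthy_VCV_025, 2 without healthy_VCV_057, 18 without healthy_VCV_060, 477 without healthy_VCV_062, 1982 without healthy_noisy_078, 4 without healthy_noisy_029 and 1 without healthy_noisy_061. By gene span the median change ran the other way, at 0.26 in the shortest and -0.36 in the longest bin.

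Neutrophil genes and glucocorticoid targets gave no call by limma between the modes of ventilation. By limma 0 of 24 neutrophil genes (median -0.01) and 0 of 16 glucocorticoid targets (median 0.09) passed. At an unadjusted p under 0.05, 1 neutrophil gene was higher and 1 lower, and 1 glucocorticoid target was higher and 2 lower. For either list edgeR called 0 genes, and DESeq2 called 1, higher in healthy_noisy. Prok2 had 291, 177 and 151 in healthy_noisy and 137, 228, 322 and 276 in healthy_VCV, a difference of -0.21 (95% interval -1.30 to 0.88, adjusted p = 0.812). Il1b had 5127, 2437 and 2139.8 in healthy_noisy and 1269, 1376, 2232 and 3773 in healthy_VCV, a difference of 0.61 (95% interval -0.49 to 1.71, adjusted p = 0.444). Zbtb16 differed by -0.59 (95% interval -1.81 to 0.64, adjusted p = 0.513) and Slc2a3 by -0.37 (95% interval -1.18 to 0.44, adjusted p = 0.538). Each of these 4 intervals reaches beyond 1 log2 unit, so the test does not show that the modes act alike. Ptger1 stood out, with 742, 562 and 559.5 in healthy_noisy against 89.5, 156, 131 and 236 in healthy_VCV and a difference of 2.09 (95% interval 0.83 to 3.34, adjusted p = 0.0398). Every healthy_noisy library was above every healthy_VCV library for that gene. Its call was lost without any 1 library other than healthy_noisy_078 (1.86 to 2.32, adjusted p of 0.0503 to 0.161), and the difference was 0.45 (adjusted p = 0.745) with the number series as a covariate. Tnf, the inflammatory cytokine, had 193, 125 and 138 in healthy_noisy and 43.1, 71.4, 71.0 and 122 in healthy_VCV, a difference of 1.05 (95% interval 0.07 to 2.02, adjusted p = 0.129).

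Cardiac muscle led the lower side again, with 10 of 15 genes lower in healthy_noisy than in healthy_VCV (median -3.28), 7 of them without healthy_VCV_062 and 0 without healthy_VCV_025, healthy_VCV_057, healthy_VCV_060, healthy_noisy_029 or healthy_noisy_061. Fabp3, the fatty acid binding protein of heart, had 0, 10.8 and 10.2 in healthy_noisy, against 138, 112.7, 74.5 and 27.6 in healthy_VCV and 129, 310.3 and 358 in control_blank. The lowest of the healthy_VCV values is that of healthy_VCV_062, the library in the same number series as healthy_noisy. The difference was -3.91 (95% interval -5.81 to -2.0, adjusted p = 0.0275), and it was -1.77 (adjusted p = 0.485) with the series as a covariate, -2.49 (adjusted p = 0.638) against healthy_VCV_062 alone and -2.73 (adjusted p = 0.1) without healthy_noisy_029. On the higher side, Capn12, a calpain protease, had 397, 300.3 and 258 in healthy_noisy, against 30.6, 45.1, 52.6 and 56.9 in healthy_VCV and 229, 90.2 and 26.4 in control_blank, a difference of 2.77 (95% interval 1.63 to 3.91, adjusted p = 0.023). Slc24a5, a cation exchanger of pigment cells, had 106, 113.4 and 67.5 in healthy_noisy, against 6.63, 13.2, 6.13 and 11.8 in healthy_VCV and 33.2, 19.4 and 9.59 in control_blank, a difference of 3.24 (95% interval 1.80 to 4.68, adjusted p = 0.0252). For both genes all healthy_noisy libraries were above all healthy_VCV libraries, and with the series as a covariate the differences were 1.8 (adjusted p = 0.365) and 1.67 (adjusted p = 0.413). The calls of Fabp3, Capn12 and Slc24a5 were lost without healthy_VCV_025, healthy_VCV_057, healthy_VCV_060, healthy_noisy_029 or healthy_noisy_061. Ribosomal protein genes had 11 of 66 higher and 0 lower in healthy_noisy than in healthy_VCV (median 0.29), and the median was 0.03 after subtracting that of each member's bin by span. The matrix list had 0 higher and 5 lower of 31 (median -0.85, and -0.66 after that subtraction). These counts were also 0 to 3 without any 1 library other than healthy_noisy_078, without which they were 19 and 13.

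**Figure D5:**
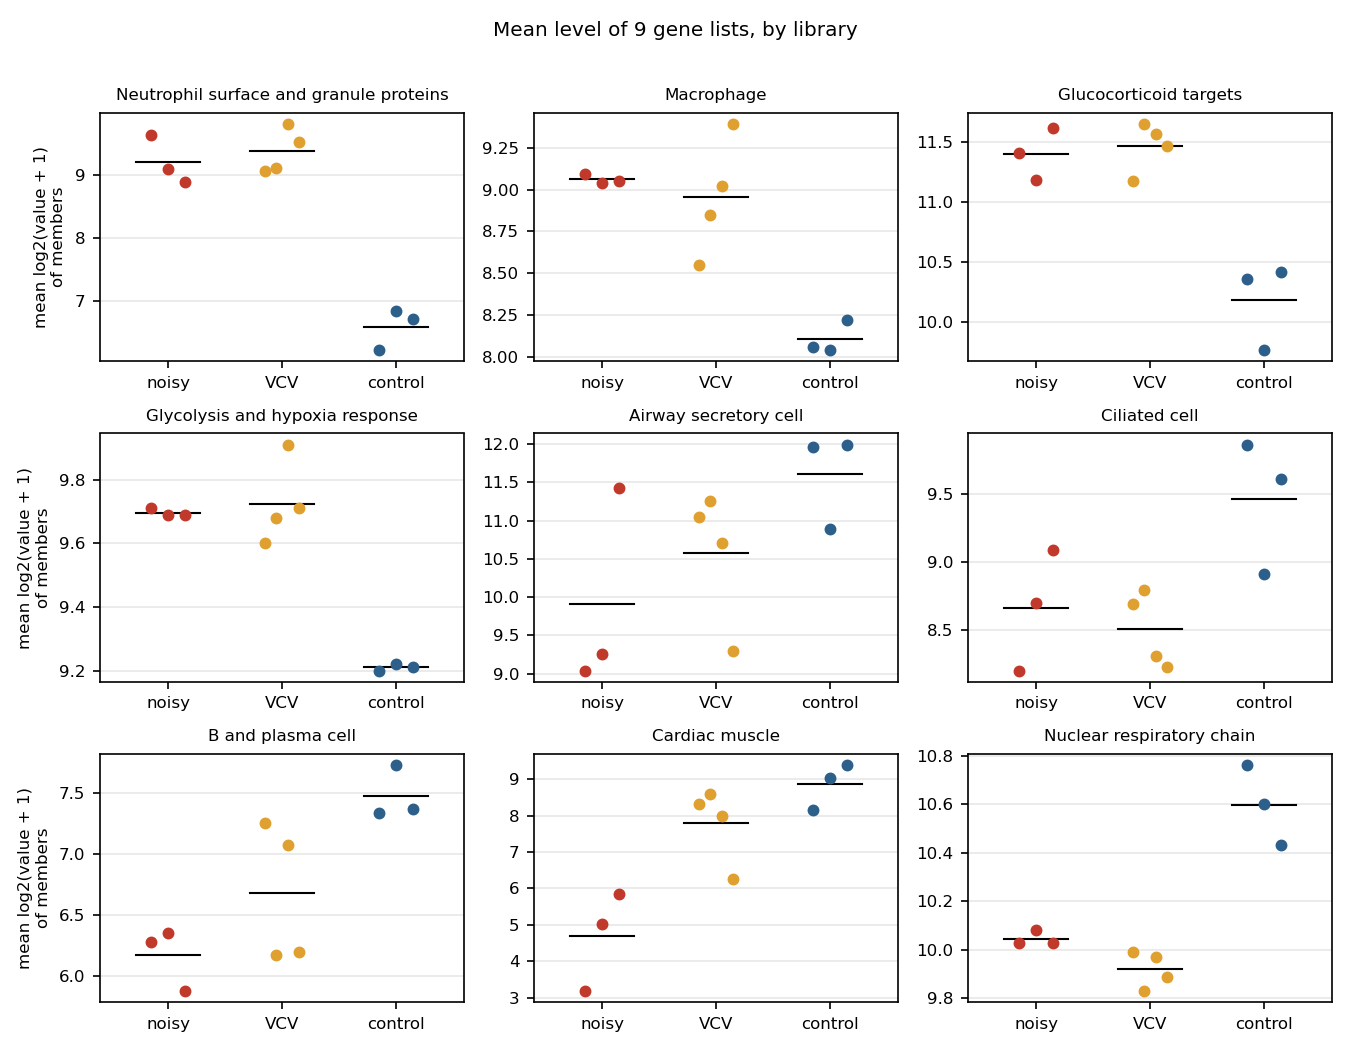
Mean log2(value + 1) of the tested members of 9 gene lists (y axis, each with its own range) in each library of healthy_noisy, healthy_VCV and control_blank lungs. Points are libraries and lines are group means. Neutrophil genes lie at 8.89 to 9.64 in healthy_noisy, 9.07 to 9.81 in healthy_VCV and 6.21 to 6.83 in control_blank.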

How the data were processed

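Per the labels' protocols, RNA selected with oligo(dT) beads from frozen lung was made into strand-specific libraries and sequenced on a HiSeq 2000. CASAVA 1.8.0, BWA, bedtools 2.11, DESeq 1.8.3 and genome build rn4 are named in the submitters' processing notes, without their roles. Whether counting used strand is not given in the sources used here, so overlapping genes may share reads. The authors deposited a normalized signal for 17002 Ensembl genes in 28 libraries, read counts divided by a size factor for each library. This was found from the values, since 100% of them are whole multiples of 1 step within 0.1 read, and reads were recovered from those steps.

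Genes whose deposited values averaged 10 or more over the 28 libraries were tested, 14908 in all. Their log2(value + 1) entered a linear model with 8 group means and a common estimate of the spread (limma 3.58.1, R 4.3.3, trend and robust options), with Benjamini-Hochberg adjustment and a threshold of 0.05. Standard errors and adjusted p-values are from that fit unless another tool is named. With 3 libraries against 3, an exact permutation test could not go below a two-sided p of 0.1, so none was used. Alternatives were edgeR 4.0.16 and DESeq2 1.42.0 on recovered reads, TMM scaling, quantile normalization, no filter, a pseudocount of 10, the compared groups alone, and each library left out. In simulated counts with known changes for healthy_noisy against control_blank, limma recovered 54 of 100 genes changed 2-fold and 92 of 100 changed 4-fold, and called 7 of 14708 unchanged genes. The simulation varied each gene independently, held no slope with gene span and changed few genes. It checks the procedure, and its rates cannot be carried over to the 4791 calls in these libraries.

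The labels only number the samples and do not say that they are separate animals, so p-values measure the spread between libraries, which may be technical. That spread was pooled over the groups of all 28 libraries, injured lungs included, and is not that of the compared libraries alone. No pair of libraries within these groups was identical. The comparison, its 44 gene lists and the genes named were chosen with earlier results of these data known. Of 1185 list members written, 1023 were found in the table. Named genes were the 15 highest and 15 lowest called changes without overlap (average of 50 or more in the group that was higher), the 6 most abundant called genes in each direction, the first gene and the 4 largest called changes of each list, list members that did not pass, and the 6 highest and 6 lowest called differences to healthy_VCV. Acta1, Actc1, Cdh5, Cry1, Emcn, Icam1, Ldha, Msln, S1pr1, Scnn1b and Upk3b were chosen outside that rule, after their values were seen, as was the split by gene span. Gene spans and promoter sequences are from RefSeq (GRCr8) and were matched by symbol, and no coordinates of rn4 are given.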

Additional observations from a re-analysis of the deposited data

How the results depend on the processing

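The count of genes that differed between healthy_noisy and control_blank was 4791, and it was within 1.5 times that under DESeq2, edgeR, TMM scaling, quantile normalization, no filter and a pseudocount of 10. With only the compared libraries in the fit it was 2059, and with 1 library left out 2666 to 5419. Against healthy_VCV the count was 1538, with 2684 under DESeq2, 3886 with only the compared libraries, 0 with the number series as a covariate, 0 against the series 15 library alone, and 1 to 1982 with 1 library left out. The cause was not tested. No named gene past the threshold in the first comparison changed direction under any alternative run. Of 210 such genes, 55 lost the call with only the compared libraries, 1 to 15 under the other scalings, tools, filter and pseudocount, and 23 to 64 with 1 library left out. Those 55 include Scgb1a1, Scgb3a1, Glycam1, Ccr6, Oas1a, Irf9, Per1, Cry1, Scd and Ldha (adjusted p of 0.0551 to 0.0841 in limma). Among genes that did not pass it, quantile normalization turned the log2 change of Il6 to -0.10 and of Sftpc to 0.22. With 1 library left out, the log2 change ran over both signs, at -0.98 to 1.23 for Mx1, -0.60 to 0.12 for Cxcl1, -0.15 to 1.03 for Il6, -0.31 to 0.01 for Sftpc and -0.66 to 0.34 for Cyr61. Against healthy_VCV, Prok2 turned to 0.03 with the series covariate and Il1b to -0.34 against the series 15 library. No paired analysis was possible because no replicate number occurs in both groups. Depth limits genes of a few reads, such as Il6 and the control values of RT1-N1.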
